A study of Mus musculus with 20 samples.

Results

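Among the cells sorted from tumors as macrophages, 77 of 10885 cells (0.707%, exact 95% binomial interval 0.559% to 0.883%) met a rule for T and NK cells by their transcripts. Of these, 4 cells carried collagen genes and are included unless stated, and without them 73 cells (0.671%) remain. The cells were chosen by their measured counts of 6 genes: a cell was taken when Cd3e, Cd3g and Trac summed to at least 2 corrected counts or Nkg7 reached at least 5, and when it held no Cd79a, a B-cell receptor gene, and no Csf1r, the receptor that marks macrophages. All differences from the remaining 10808 cells are therefore descriptions and were not tested. The cells came from tumor-associated macrophages (TAM) purified from 4 female BALB/c mice, 8 to 12 weeks old, that carried 4T1.2 tumors, a transplantable mouse mammary cancer. No other tumor model, no tumor-free tissue and no sorted lymphocytes were part of this comparison, so all groups share the same tumor model. The data columns number the libraries 2 to 5, whereas the labels number the samples 1 to 4, so a library could not be tied to a mouse and values are given by library. Values are SCTransform-corrected counts per cell, which bring cells to a shared depth and are not numbers of molecules. A count of 1 is the smallest value. Of the cells outside, sorted as macrophages, 17.1% had Adgre1, which encodes the macrophage antigen F4/80, 47.7% had Csf1r, and 85.5% had the neutrophil gene S100a8.

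T cells recognize peptides through the T-cell receptor, whose chains signal through the CD3 proteins, and they divide broadly into CD8 cells, which kill, and CD4 cells, which help or, with the factor Foxp3, suppress. NK cells kill without that receptor and read activating and inhibitory receptors on the cell surface. Both kill by releasing granules that hold perforin, which opens the target's membrane, and granzymes, proteases that enter through it. In tumors, CD8 cells that meet antigen for a long time are known to carry inhibitory receptors such as PD-1 (Pdcd1), LAG-3 (Lag3) and TIM-3 (Havcr2).

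The 4 libraries held 17, 10, 27 and 23 T and NK cells of 3180, 2318, 2387 and 3000 cells. These were 0.535%, 0.431%, 1.13% and 0.767% of the cells, with exact binomial intervals of 0.312% to 0.855%, 0.207% to 0.792%, 0.747% to 1.64% and 0.487% to 1.15%, which cover counting error only. Library 4 held the highest share and library 3 the lowest, and the intervals of all 4 libraries overlapped. Of the 77 cells, 69 met the T-cell condition and 40 the Nkg7 condition. The cells fell into 37 that met the T-cell condition only, 32 that met both and 8 that met the Nkg7 condition only. The 37 cells were spread over the libraries as 6, 7, 12 and 12, the 32 cells as 11, 1, 10 and 10, and the 8 cells as 0, 2, 5 and 1. Library 3 thus gave 3 of the 40 cells with the Nkg7 condition. The median total was 8382 corrected counts in T and NK cells and 7960.5 in all other tumor cells, and the median number of detected genes was 2467 and 1795.5. In all 4 libraries together, 13 barcodes were found in 2 libraries, and none of the 77 cells carried one.

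Most of the cells lay well above the thresholds. Among cells that met the T-cell condition, the sum of Cd3e, Cd3g and Trac had a median of 21 and reached 61, and 1 cell without the Nkg7 condition was at the threshold of 2. Just outside it, 3 cells without Cd79a and Csf1r had a sum of 1. Among the 40 cells with the Nkg7 condition, Nkg7 had a median of 17.5 and reached 43, and 5 cells were at the threshold of 5. No such cell outside had a count of 4, and 1 had a count of 3. Another 11 cells that met a condition were left out for Csf1r and 1 for Cd79a. The 11 cells had a median of 6 Lyz2 and 7 Apoe counts, both macrophage genes, and a sum of Cd3e, Cd3g and Trac of up to 35.

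**Figure D1:**
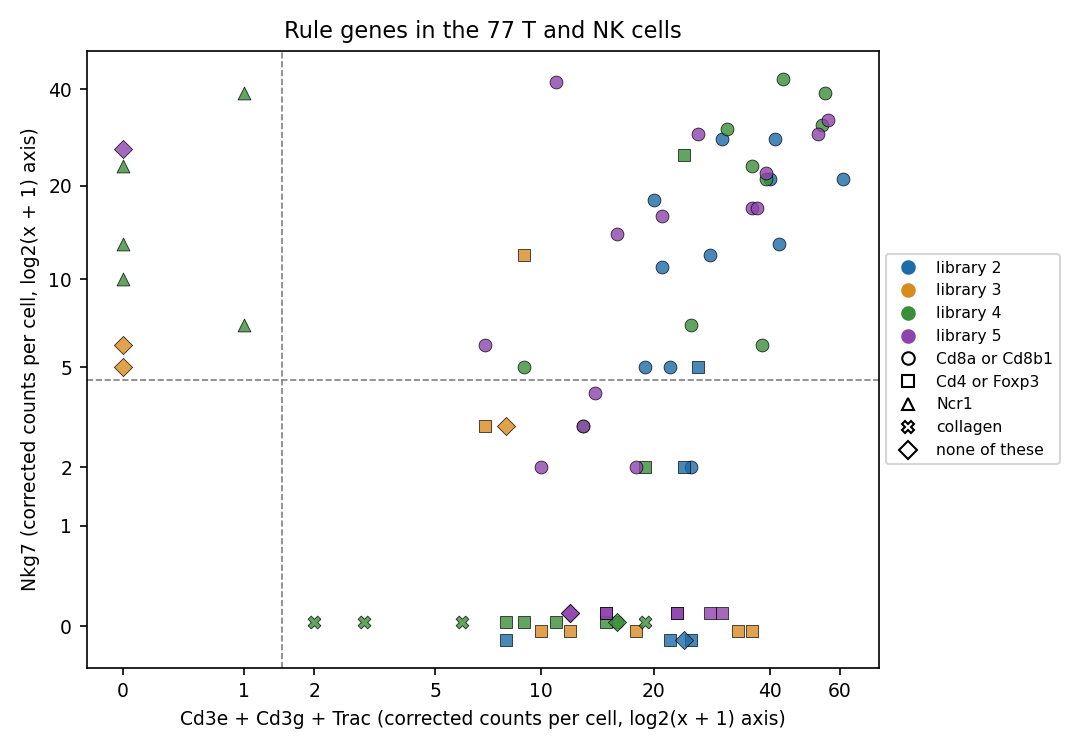
Each point is 1 of the 77 T and NK cells, with the sum of Cd3e, Cd3g and Trac on the horizontal axis and Nkg7 on the vertical axis, in corrected counts per cell on log2(x + 1) axes. Color gives the library, shape the other genes found in the cell, dashed lines the thresholds, and points at 0 Nkg7 are shifted slightly by library to separate them. Cells with Cd8a or Cd8b1 lie mostly at the upper right, cells with Cd4 or Foxp3 along the bottom, and the 5 cells with Ncr1 at the left.

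The label held for most of the cells. Members of the T-cell receptor complex and of the T lineage that the rule did not use were found in most cells with the T-cell condition, among them Trbc2, a constant region of the receptor's beta chain, in 61 of these 69 cells, Cd3d in 61 and the kinase Lck in 59. The label did not hold for 4 cells of library 4, and it had mixed support in 2 cells of library 3. The 4 cells carried 222 to 514 counts of Col1a1, Col1a2 and Col3a1 in sum, collagens of fibroblasts, against at most 1 in the other 73 cells. They had 2 to 19 counts of Cd3e but none of Cd3g or Trac. Only 10 of the other tumor cells reached a collagen sum of 20, and 1 of those had Cd3e. Without the 4 cells, library 4 held 23 members and the whole 73. The 2 cells of library 3 met the Nkg7 condition only, with Nkg7 at 5 and 6. Both had no count of Cd3e, Cd3g, Trac, Ncr1, Klrd1, Prf1, Ccl5 or Xcl1. One of them had 4 counts of Gzmb and 10 of Tyrobp, and none of S100a8, S100a9 or Lyz2. The other had no Gzmb and 38 counts of S100a9. The part of cells caught together in 1 droplet was not tested, and no doublets were removed.

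A few cells carried genes of other lineages beside those of T or NK cells. One cell of library 4 with the T-cell condition, with Foxp3 and 8 Ctla4 counts, had 232 counts of Cxcl2, 102 of Wfdc17 and 36 of S100a9. Another of library 4 had 64 counts of Lyz2, and 3 cells, in libraries 2, 3 and 4, had at least 20 counts of Cd74, the invariant chain of MHC class II. One of the cells of library 3 with the Nkg7 condition only had 38 counts of S100a9. Over the markers of neutrophils, 7 of 8 had a count in some member, and their means summed to 1.59, 10.3, 5.52 and 3.04 in the 4 libraries, against 454.1 to 791.5 in the other tumor cells. Over the markers of monocytes and macrophages, 9 of 11 had a count beside Csf1r, which the rule set to 0, and the sums were 0.900 to 4.33 against 44.0 to 74.8. The defining markers Cxcr2 of neutrophils, Adgre1, which encodes F4/80, and Fcgr1 were at 0 in all 77 cells, which allows a share of up to 3.90% of cells with a count. Of the markers of dendritic cells, 8 of 11 had a count, and their means summed to 9.47, 35, 5.15 and 1.48 in the 4 libraries against 40.9, 21.4, 36.0 and 33.7 in the other tumor cells. Library 3 was above its other cells, with Cd74 at 18.3 against 12.9 and H2-Ab1, an MHC class II chain, at 10.1 against 4.64, and 1 cell there held 182 Cd74 counts. The dendritic cell markers Flt3, Clec9a and Siglech were at 0, and among those of B cells Cd79a (set by the rule), Cd79b and Pax5. Of the markers of tumor, stromal and red cells, Krt8, Hbb-bs and Hba-a1 were at 0 and 6 of 9 had a count. Their means summed to 0.412, 1.1, 49.5 and 0.217 in the 4 libraries against 0.479, 0.208, 0.876 and 0.258 in the other tumor cells, so libraries 3 and 4 were above their other cells, and library 4 held the collagen cells. The part of these cells in the differences below was not tested beyond the values given without them.

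A gene was counted as higher or lower when its log2(mean + 0.1), taken over the cells of a library, differed by at least 1 in the same direction in each of the 4 libraries. Of 6737 genes with enough counts, 471 (6.99%) were higher in T and NK cells than in all other tumor cells and 509 (7.56%) were lower. The median difference over all these genes was 0.31 on the log2 scale, so a difference of a single gene stands against a shift of that size. With a pseudocount of 0.5 in place of 0.1, 169 genes were higher and 259 lower. All of them were among the first ones, which a larger pseudocount sets in advance. With 0.02 the count of higher genes was 742. Without the 4 collagen cells 496 genes were higher and 557 lower. Without the 2 cells of library 3 that met the Nkg7 condition only, the counts were 455 and 510.

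The rule's own genes stood as it set them. Cd3e averaged 6.24, 4.2, 6.37 and 6.17 counts per cell in the 4 libraries and Trac, the constant region of the receptor's alpha chain, 8.24, 4.5, 4.63 and 7.35. In all other tumor cells both genes stayed at or below 0.0110. Nkg7, a protein of cytotoxic granules, averaged 10.1, 2.9, 12.1 and 11.3, so that library 3 was lowest. Of all Nkg7 counts in the tumor cells, 96.2% were in the 77 cells, as were 90.9% of those of Cd3e. These genes measure the choice and nothing more.

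Beside the 3 rule genes, all 15 genes of the T-cell receptor complex and T lineage were higher, with a median difference of 4.11. Trbc1 and Trbc2 differed by 5.80 ± 0.19 and 5.94 ± 0.66 (SD, n = 4 libraries) and Cd3d by 5.20 ± 0.60. Thy1, a surface protein of T cells, averaged 6.35, 1.8, 5.41 and 4.35 counts in the libraries and 0.0141 in other tumor cells, a difference of 5.20 ± 0.67. The 4 collagen cells had it as well: it was found in 58 cells with them and 54 without. Without them library 4 averaged 4.70 and the difference was 5.15 ± 0.67. The signaling proteins Lat and Lck and the T-cell factor Bcl11b had differences between 3.80 and 4.38. Ms4a4b, a membrane protein of T cells, averaged 9.18, 4, 6.19 and 12.8 counts and was 5.65 ± 0.73 higher. Library 3, with 10 cells, had the lowest difference for Cd3e, Cd3g, Cd3d, Thy1 and Ms4a4b. It had the highest for Lat (4.66), Bcl11b (4.56), Cd5 (3.96) and Cd247 (3.76).

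**Figure D2:**
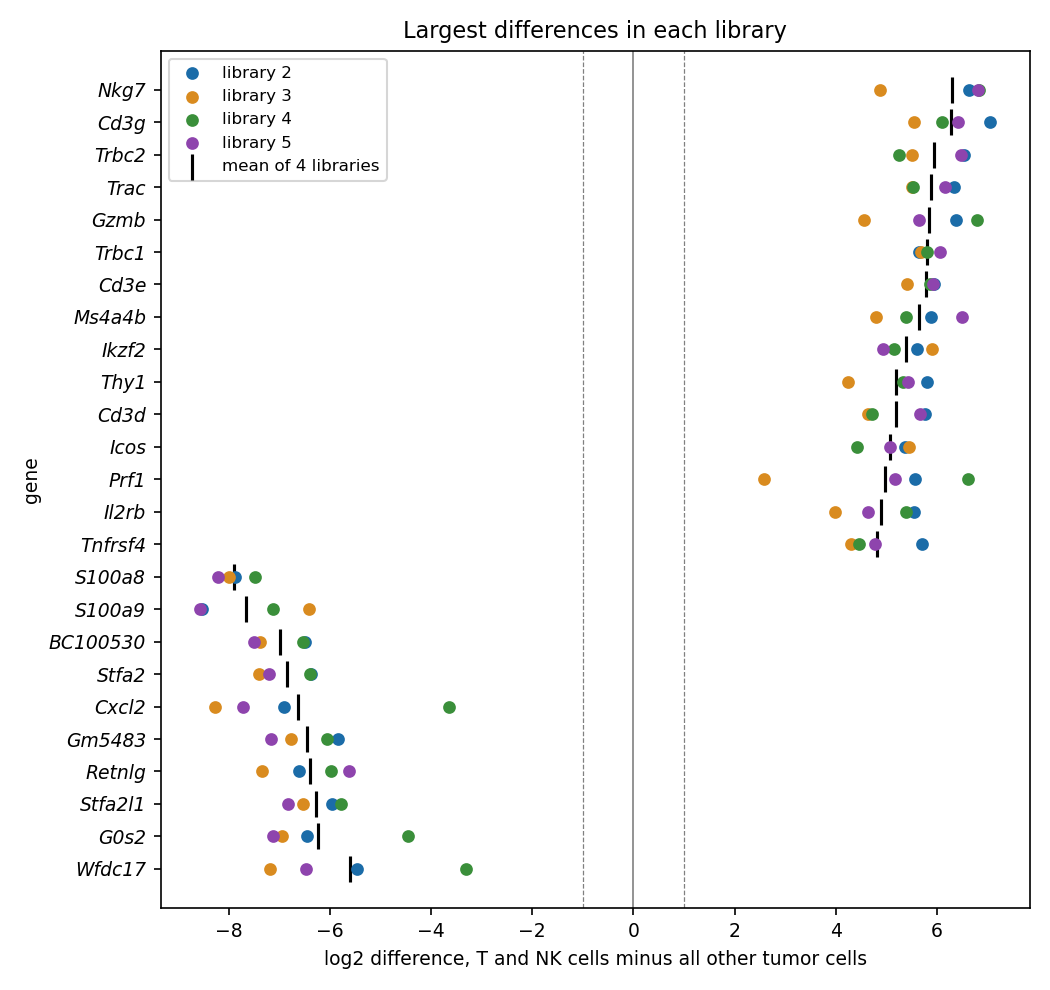
Differences between T and NK cells and all other tumor cells for the 15 genes with the largest positive and the 10 with the largest negative mean, on the log2(mean + 0.1) scale. Points are libraries, the black bar their mean, and dashed lines the limits of 1 and -1. In all 25 genes every library lies on the same side, and among the lower genes Cxcl2 and Wfdc17 lie closest to 0, in library 4.

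The cells met a split between CD8, CD4 and NK genes that the rule did not use. Cd8a or Cd8b1, the chains of the CD8 coreceptor, had a count in 36 cells, and 35 of these had both. No cell with either of them had Cd4, which was found in 17 cells. Foxp3 was found in 16 cells, of which 8 had Cd4 and 1 had Cd8b1. Another 9 cells had Cd4 without Foxp3, and 13 cells had none of these genes and no collagen. After thinning each cell to 6000 corrected counts the share of cells with Cd8a in the cells with the T-cell condition only was 16.2%, as before. The CD8 cells numbered 11, 0, 11 and 14 in the 4 libraries and the cells with Cd4 2, 6, 4 and 5. Library 3 thus held no cell with a CD8 chain among its 10 cells. Cd8a averaged 4.35, 0, 2.67 and 3.17 counts, so it was not counted as higher in all libraries, while Cd4 averaged 0.471, 1.5, 0.333 and 0.522 and was higher by 2.74 ± 0.85. Of the 6 genes of the list of T-cell subsets in the table, 4 were higher, Cd4, Foxp3, Il2ra and Ikzf2, with a median of 3.77. The constant regions of the gamma and delta chains were not analysed here.

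Most CD8 cells were among the cells that met both conditions. Of these 32 cells, 29 had Cd8a or Cd8b1, 3 had Cd4 and 2 had Foxp3. Of the 37 cells with the T-cell condition only, 7 had a CD8 chain, 14 had Cd4 and 14 had Foxp3. All 16 cells with Foxp3 had Ikzf2, which encodes Helios, a factor of regulatory T cells, and 14 each had Ctla4, an inhibitory receptor that such cells carry, and Il2ra, the alpha chain of the interleukin 2 receptor. These genes were not particular to the cells with Foxp3. Over all 77 cells Ikzf2 was found in 43, Ctla4 in 38 and Il2ra in 40, and in the 32 cells with both conditions in 17, 18 and 23. Foxp3 averaged 0.882, 1.30, 0.741 and 0.304 counts over all T and NK cells of a library and 0.00140 in other tumor cells. Gzmb was found in 11 of the 16 cells with Foxp3.

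The 8 cells with the Nkg7 condition only differed in their receptors. Ncr1, which encodes the NK receptor NKp46, was found in 5 of them, all in library 4, at 2 to 12 counts, and in none of the other 69 cells. In the remaining 10808 tumor cells 0.00925% had Ncr1. None of the 8 cells had Cd3e or Trac and 2 had 1 count of Cd3g, which the rule set, since it allowed a sum of these genes of at most 1. Of the genes of the receptor's beta chain, which the rule did not use, Trbc1 was found in 6 of the 8 cells and Trbc2 in 2. They were found in 20 and 30 of the 37 cells with the T-cell condition only and in 23 and 31 of the 32 with both. Tyrobp, an adaptor of NK and myeloid receptors, was found in all 8, against 5 of the 32 cells with both conditions, 21 of the 37 cells with the T-cell condition only and 99.2% of other tumor cells. Eomes, a factor of NK and CD8 cells, was found in 5, and Klrd1 (CD94) and Klrk1 (NKG2D) in 6 each. The 32 cells with both conditions had them too, Eomes in 12, Klrd1 in 23 and Klrk1 in 25. The 3 cells without Ncr1, of libraries 3 and 5, had 5, 6 and 26 counts of Nkg7.

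Of the list of NK receptors and NK lineage, 17 genes were in the table and 11 had enough counts, of which 6 were higher and 2, Tyrobp and Fcgr3, were lower, with a median of 2.55. The receptors Klrd1, Klrk1, Klrc1 and Klrc2 were higher by 4.11 ± 1.16, 2.55 ± 0.65, 3.49 ± 1.05 and 2.93 ± 0.93. Klrc1 was found in 26 of the 32 cells with both conditions and in 3 of the 8 cells with the Nkg7 condition only. Klrk1 was found in 25 of the 32 and 6 of the 8. In the 37 cells with the T-cell condition only, each of these 2 genes was found in 3 cells. Il2rb, the beta chain of the receptors for interleukins 2 and 15, was found in 64 of 77 cells and averaged 4.71, 1.5, 4.37 and 2.43 counts, a difference of 4.89 ± 0.73.

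**Figure D3:**
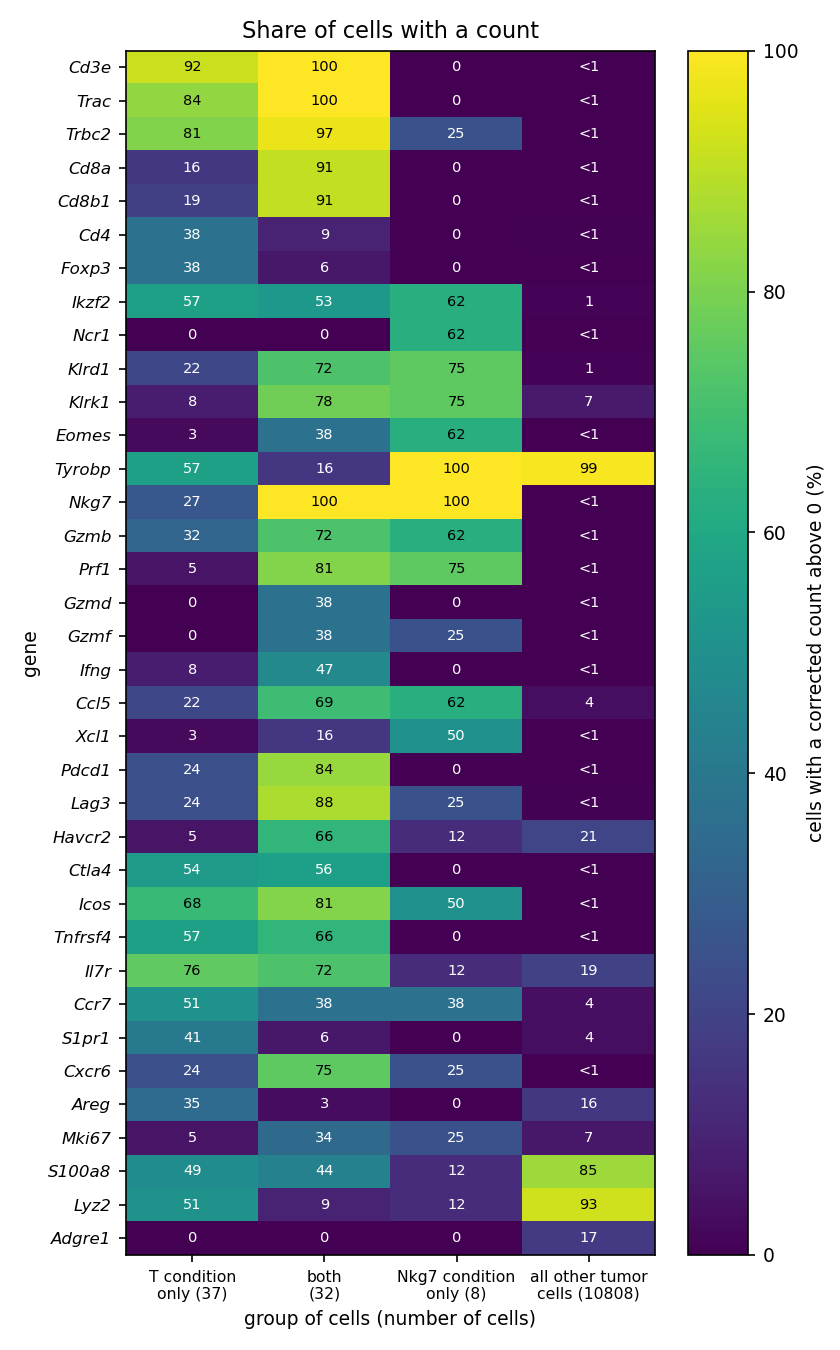
Share of cells with a count above 0 for 36 genes (rows) in the cells with the T-cell condition only, with both conditions, with the Nkg7 condition only, and in all other tumor cells (columns), in percent. Cd8a stands at 90.6% in the cells with both conditions and at 16.2% in those with the T-cell condition only (rounded to whole percent in the picture), and Ncr1 above 0% in the third column and, below 1%, in the last.

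Gzmb, which encodes granzyme B, averaged 8.47, 2.3, 13.3 and 4.96 counts per cell in the 4 libraries and at most 0.0212 in other tumor cells, a difference of 5.85 ± 0.98. Its counts came from 40 of the 77 cells and reached 186 in 1 cell. Prf1, which encodes perforin, averaged 4.65, 0.5, 10 and 3.57, a difference of 4.98 ± 1.71, and was found in 34 cells, 26 of which also had Gzmb. Of the other tumor cells, 0.0925% had Gzmb (exact interval 0.0444% to 0.170%), at a highest count of 39, and 90.9% of all Gzmb counts were in the T and NK cells. Beside Nkg7, which the rule used, 5 of the 14 genes of the cytotoxic granule with enough counts were higher (median 3.55), the others being Ctsw, Cst7 and Serpinb6b, and 1 was lower, Srgn, the proteoglycan of secretory granules, which macrophages and neutrophils also make. Gzma was not analysed here.

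Gzmc, Gzmd, Gzme, Gzmf and Gzmg form a cluster of related genes with Gzmb. It lies on the minus strand of chromosome 14 in GRCm38, from Gzme at 56117626 to 56120625 through Gzmd, Gzmg, Gzmf and Gzmc to Gzmb at 56258838 to 56262260. Their promoters, windows of 300 bases placed by the start of each gene in RefSeq (build GRCm38.p6), are shown for Gzmb and for Gzmf, Gzmd and Gzme, the 3 genes that were found together in the same single cells. Capitals mark TGTGGT, the core that Runx factors recognize, on either strand.
Gzmb, chr14:56262285-56262584, minus strand: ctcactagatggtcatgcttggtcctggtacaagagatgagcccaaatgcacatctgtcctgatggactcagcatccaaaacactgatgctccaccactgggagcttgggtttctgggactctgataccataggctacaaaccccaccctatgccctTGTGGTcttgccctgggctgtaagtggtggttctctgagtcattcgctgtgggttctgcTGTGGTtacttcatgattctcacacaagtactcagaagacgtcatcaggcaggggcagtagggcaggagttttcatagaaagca
Gzmf, chr14:56211358-56211657, minus strand: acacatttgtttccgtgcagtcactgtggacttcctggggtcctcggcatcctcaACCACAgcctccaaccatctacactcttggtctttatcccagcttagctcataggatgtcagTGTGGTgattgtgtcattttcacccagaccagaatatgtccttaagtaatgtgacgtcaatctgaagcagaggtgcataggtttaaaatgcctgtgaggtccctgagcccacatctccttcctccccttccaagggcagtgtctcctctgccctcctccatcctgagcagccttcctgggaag
Gzmd, chr14:56132544-56132843, minus strand: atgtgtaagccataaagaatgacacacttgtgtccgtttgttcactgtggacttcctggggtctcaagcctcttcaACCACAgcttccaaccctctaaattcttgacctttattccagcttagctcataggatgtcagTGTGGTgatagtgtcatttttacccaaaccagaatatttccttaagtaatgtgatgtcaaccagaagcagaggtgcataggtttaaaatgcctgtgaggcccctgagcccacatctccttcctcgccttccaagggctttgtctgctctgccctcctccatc
Gzme, chr14:56120576-56120875, minus strand: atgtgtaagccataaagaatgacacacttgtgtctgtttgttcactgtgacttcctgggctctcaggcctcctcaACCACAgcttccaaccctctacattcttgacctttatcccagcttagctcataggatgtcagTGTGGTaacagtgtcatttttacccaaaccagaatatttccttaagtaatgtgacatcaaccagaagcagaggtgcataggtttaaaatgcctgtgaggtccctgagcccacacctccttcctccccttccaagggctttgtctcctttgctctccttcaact
The promoters of Gzmc to Gzmg were 74.6% to 93.4% identical over 10 pairs, whereas Gzmb was 46.8% to 51.7% identical to them. The window of Gzmb lies upstream of the gene's start in GENCODE, given above, while those of the other genes span theirs, so it is offset from them and its identity is not a like comparison. Each of the 6 promoters held TGTGGT or its reverse complement 2 times, and 16.8% of all 32851 promoters of this length held it at least once. TGACGTCA, the cAMP response element, was found in Gzmc, Gzmf and Gzmg and in 1.79% of all promoters. TGANTCA, the AP-1 site, was found in Gzmb alone of the 6 and in 7.81% of all. These letters are descriptions of the windows and show no binding. In the last 400 bases of their transcripts, the part that 3' counting reads, Gzmd to Gzmg were 82.2% to 87.1% identical. No window of 90 bases there was the same in any of the 6 genes, but reads with errors could still be split among them, so the values of single genes are uncertain.

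Gzmf was found in 14 cells, at up to 290 counts in 1 cell. It averaged 16, 0, 7.93 and 15.9 counts in the 4 libraries, Gzmd 7.71, 0, 6.22 and 6.70, and Gzme 3.24, 0, 5.96 and 3.17. None of these was found in library 3, so none was counted as higher in all libraries. Of all Gzmf counts in tumor cells, 98.4% were in the T and NK cells. The counts were concentrated in 10 cells, 3, 4 and 3 in libraries 2, 4 and 5, whose sum of Gzmd, Gzme, Gzmf and Gzmg was 29 to 486. Another 7 cells had a sum of 1 to 3, and 60 cells had none. All 10 cells met both conditions and had Gzmd, Gzme and Gzmf together, and 7 had Gzmg as well. All 10 also had a CD8 chain, Gzmb, Prf1 and Pdcd1, and 9 had Ifng.

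Cells with these granzymes were set beside the 14 cells with a CD8 chain and the Nkg7 condition in which the sum was 0. The 10 cells averaged 32.7 counts of Gzmb and 27.1 of Prf1, and the 14 cells 7.43 and 5.5. One cell of library 4 held 186 of the 327 Gzmb counts, and the mean was 15.7 without it and 12.7 without library 4. The mean of Prf1 was 15.3 without library 4, where the 14 cells had 3.2. The medians of the 10 and the 14 cells were 18 and 1 for Gzmb and 24.5 and 1.5 for Prf1. Ifng, which encodes interferon gamma, averaged 5.5 and 0.929, Lag3 5.4 and 1.5 and Havcr2 3.6 and 1.29. Without library 4 Havcr2 averaged 2.17 and 1.2. Without library 2 the mean of Ifng in the 14 cells was 0.3. Xcl1, a chemokine that draws dendritic cells, had no count in the 10 cells, and 99 of its 111 counts in the 14 cells came from 1 cell of library 5, without which they averaged 0.923. Ccl5 averaged 3.9 and 13.6, with medians of 0.5 and 3. Without library 4 the mean of the 10 cells was 0.333, and without library 5 that of the 14 cells was 6.25. Pdcd1 averaged 5.3 and 4. Ccr7, a receptor for homing to lymph nodes, was found in 2 of the 10 and 8 of the 14 cells. The median totals were 8619.5 and 8567 corrected counts. Nkg7, whose condition both groups met by choice, also averaged more in the 10 cells, at 26.7 and 14.3, and so did Cd8a, at 9.6 and 5.21. The part of this in the other differences was not tested. Left out of this contrast were the 7 cells with a sum of 1 to 3, of which 2 met the Nkg7 condition only. Those 7 cells averaged 14.6 counts of Gzmb, 8.71 of Prf1, 3.29 of Lag3, 1.71 of Havcr2 and 0.714 of Ifng. The 10 cells were picked for their granzymes and come from 3 libraries, so these values are a description.

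**Figure D4:**
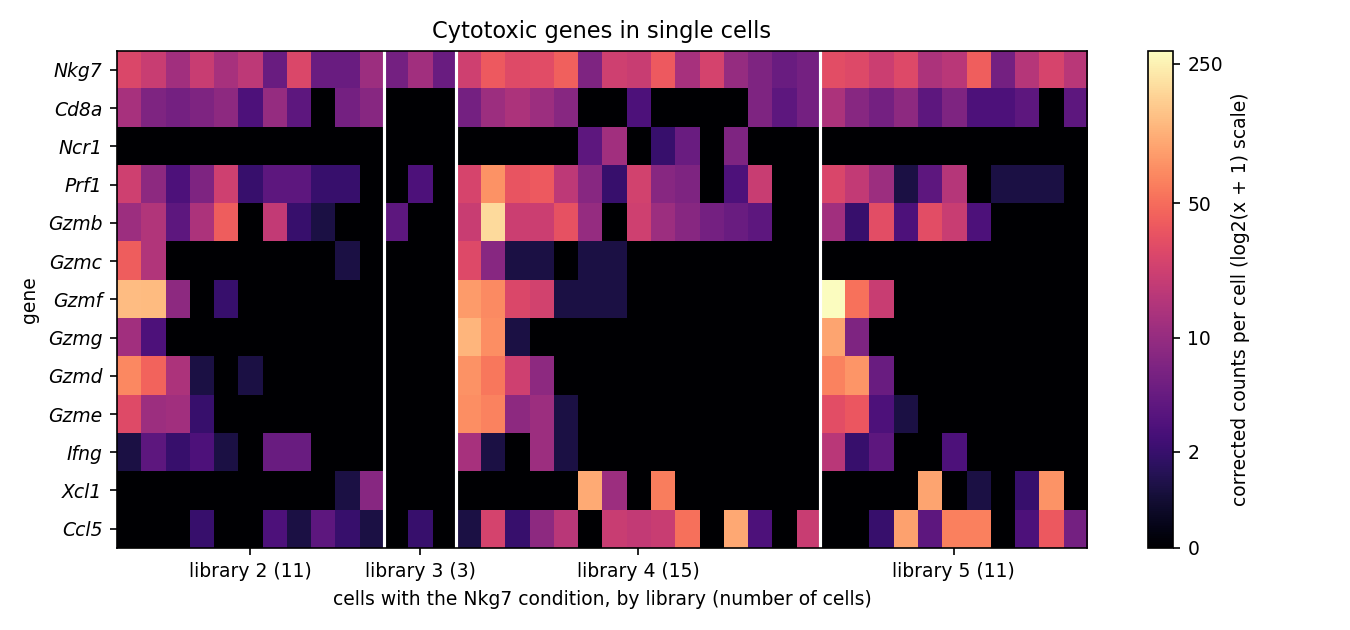
Corrected counts of 13 genes (rows) in each of the 40 cells with the Nkg7 condition (columns), on a log2(x + 1) color scale, grouped by library and ordered within a library by the sum of Gzmd, Gzme, Gzmf and Gzmg. Gzmd, Gzme and Gzmf fill the same first 3 or 4 columns of libraries 2, 4 and 5, and library 3 has none.

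Of 11 inhibitory receptors with enough counts, 4 were higher and none lower. Pdcd1 averaged 3.06, 0.7, 1.74 and 2.13 counts, a difference of 4.09 ± 0.86, and Lag3 2.12, 1.8, 1.48 and 1.70, a difference of 4.11 ± 0.22. Ctla4 differed by 4.61 ± 0.49 and Tox, a factor of exhausted T cells, by 3.48 ± 0.43. Havcr2 was not counted: 20.9% of other tumor cells had it, and the T and NK cells of library 3 had none. By condition, Pdcd1 was found in 27 of 32 cells with both, 9 of 37 with the T-cell condition only and none of the 8 with the Nkg7 condition only. Lag3 was found in 28, 9 and 2 of these cells and Havcr2 in 21, 2 and 1. Ctla4 and Tox did not follow this split, with Ctla4 in 18, 20 and 0 of these cells and Tox in 18, 21 and 1. Their shares of the 32 and the 37 cells were 56.3% and 54.1% for Ctla4 and 56.3% and 56.8% for Tox. Pdcd1, Lag3 and Havcr2 were found together in 19 cells, all with both conditions. Of 9 costimulatory receptors with enough counts, 6 were higher and none lower, with Icos at 5.08 ± 0.47, Tnfrsf4 (OX40) at 4.82 ± 0.63 and Tnfrsf9 (4-1BB) at 3.96 ± 0.74. The medians of the 2 lists were 1.89 and 3.89.

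Among cytokines and chemokines, 1 of 10 genes with enough counts was higher and 2 were lower. Ltb, a lymphotoxin chain, averaged 7.18, 4, 3.93 and 6.87 counts and was 2.66 ± 0.57 higher. Tnf and Ccl3 were lower, at -2.60 ± 0.40 and -3.17 ± 0.81, and were found in 26.5% and 48.5% of other tumor cells. The median of the list was -0.37. Ifng was found in 18 cells and averaged 4, 0, 1.07 and 1.17, with 47 counts in 1 cell of library 2. Ccl5 and Xcl1 averaged 1.59, 4, 11.6 and 12.2 counts and 1.47, 0, 6.59 and 7.96, and neither was counted in all libraries. Il2, Il10 and Lta had too few counts. Il4, Il17a, Il21 and Csf2 were not analysed here.

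Of 13 cytokine receptors 7 were higher and none lower (median 1.89), led by Il2rb and Il2ra (4.03 ± 0.66). Il7r, the receptor of naive and memory T cells, averaged 3.35, 4.3, 2.19 and 3.65 counts and was 2.01 ± 0.72 higher. Among 14 genes of homing and adhesion, with a median of -0.30, 5 were higher, Ccr7, Cxcr6, S1pr1, Itgae and Cd69, and 2 were lower, Ccr2 and Cd44. Cxcr6, a receptor of T cells resident in tissue, was 3.87 ± 1.54 higher and Ccr7 2.93 ± 0.63. Of 20 transcription factors, with a median of 1.02, 7 were higher, among them Ikzf2 (5.40 ± 0.44), Rora (4.34 ± 0.20), Gata3 (2.96 ± 0.16) and Tcf7 (2.56 ± 0.67), and Zeb2 was lower. Of 13 cell cycle genes, with a median of 1.62, 7 were higher, with Top2a at 2.02 ± 0.13 and Mki67 at 1.35 ± 0.21. Mki67 had a count in 15 of the 77 cells and in 6.62% of other tumor cells. In the 37 cells with the T-cell condition only its difference was -0.65. The cell cycle count rested on the 2 cells of library 3 that met the Nkg7 condition only. They held all 8 Mki67 counts and 9 of 12 Top2a counts of that library's members. One of them, with 5 counts of each gene, had Gzmb and no S100a8, S100a9 or Lyz2. Without the 2 cells, 2 of the cell cycle genes were higher, Mcm3 and Mcm6. Mki67 was then at 0.56 ± 1.51 and Top2a at 1.65 ± 0.84, neither of them counted, and Cd69 was not counted either (1.43 ± 1.06). Read against 6.99% of all genes, the shares in these lists are descriptions, since the lists were drawn up with the results in view and the same cells were selected on related genes.

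Cells with and without the Nkg7 condition were also compared with each other within libraries, 11, 3, 15 and 11 cells against 6, 7, 12 and 12. Of 6849 genes with enough counts, 46 (0.672%) were higher by at least 1 in all 4 libraries in the 40 cells with the condition and 57 (0.832%) were lower. The counts rest on few cells. Leaving out library 2, 3, 4 or 5 gave 155, 146, 88 or 127 higher genes and 129, 92, 180 or 147 lower genes. That asks for agreement of 3 libraries in place of 4, which by itself lets the counts rise. A pseudocount of 0.5 left 3 and 11, and one of 0.02 gave 122 and 93. Without the 4 collagen cells the counts were 47 and 78, without the 2 cells of library 3 that met the Nkg7 condition only 37 and 71, and with the 72 cells low in S100a8, S100a9 and Lyz2 46 and 52.

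Prf1 and Nkg7 itself were among the 5 genes with the largest higher values. Prf1 averaged 7.18, 1, 18 and 7.36 counts in the cells with the condition and 0, 0.286, 0 and 0.0833 in the others, a difference of 5.14 ± 2.57. Irf8, a factor of myeloid development that activated T cells also use, averaged 5.36, 1.33, 11.1 and 5.64 against 0, 0, 1.33 and 0, a difference of 4.61 ± 1.43. It was found in 27 of the 32 cells with both conditions and 38.6% of other tumor cells. The histone genes Hist1h2ap and Hist1h2ae, which cells make when they copy their DNA, were 3.64 ± 1.69 and 3.23 ± 1.28 higher. Neither was counted without the 2 cells of library 3, at 1.74 ± 3.70 and 1.77 ± 2.23, since the third cell there had no count of Hist1h2ap. Their sequences are close to those of other histone genes, so counts may be split among copies. Of the lists, the granule genes Nkg7, Prf1 and Serpinb6b, the receptor subunit Il18rap and Cdk1 were higher. Il18rap and Cdk1 were not counted without the 2 cells of library 3, at 1.53 ± 1.21 and 1.32 ± 0.94. Cd8a averaged 6.64, 0, 4.67 and 5.64 against 0.167, 0, 0.167 and 0.917 and missed the count through library 3.

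Genes that were lower in the cells with the Nkg7 condition included Foxp3 and Ikzf2 of regulatory T cells. Foxp3 averaged 0.455, 0, 0.267 and 0 counts against 1.67, 1.86, 1.33 and 0.583 in the cells without the condition, a difference of -2.68 ± 1.17. Ikzf2 averaged 1.91, 2, 2.4 and 1.18 against 12.3, 8.14, 7 and 6.08, a difference of -2.09 ± 0.48, which was -1.71 ± 0.94 and not counted with the 72 cells low in S100a8, S100a9 and Lyz2. The difference lay in the counts per cell, since 22 of the 40 cells and 21 of the 37 had a count of Ikzf2. S1pr1, the receptor by which T cells leave tissue for blood and lymph, averaged 0, 0, 0.133 and 0.182 against 0.667, 1.86, 0.75 and 2, and Klf2, the factor that drives it, was lower as well (-2.68 ± 1.68). Areg, a growth factor of the epidermal growth factor family that regulatory T cells can make, averaged 0, 0, 0.2 and 0 against 2.5, 1.29, 2.33 and 2.08, the largest negative difference at -3.99 ± 0.75. It was found in 13 of the 37 cells and in 1 of the 40, and 1 of the 13 was a collagen cell with 13 counts. In other tumor cells Areg averaged 2.08 counts and was found in 16.1%. Iigp1, a GTPase induced by interferon, was at 0 in all 40 cells and averaged 1.33, 0.429, 2.83 and 0.167 in the others, and Slc15a3 and Tnfsf8, which encodes CD30 ligand, followed at -2.98 ± 0.85 and -2.88 ± 0.75. These values rest on few cells. Iigp1 was found in 7 of the 37 cells, and 1 cell of library 4 held 25 of its 47 counts. Tnfsf8 was found in 8 of the 37 cells and 1 of the 40, with 30 counts in all, and Slc15a3 in 15 and 6. Slc15a3 was found in 90.2% of other tumor cells, at a mean of 4.75, and Tnfsf8 in 0.287%. Of the markers of monocytes and macrophages and of neutrophils with enough counts in this comparison, 7 and 5, none was counted in either direction. Wfdc17, which is on no list and was found in 92.8% of other tumor cells, was counted as lower, with a count in 4 of the 40 cells and 19 of the 37 (-2.53 ± 1.92), and also with the 72 cells low in S100a8, S100a9 and Lyz2 (-1.98 ± 0.87). Lyz2 was at -2.64 ± 1.92, with a count in 4 of the 40 cells and 19 of the 37, of which 3 and 16 had a single count, Cd68 at -1.61 ± 0.96, S100a9 at -0.17 ± 2.56 and C1qa at 0.77 ± 1.62. Lyz2 was found in 92.7% of other tumor cells, and the part of free RNA in such single counts was not tested. With the 72 cells low in S100a8, S100a9 and Lyz2, Areg was at -3.97, Iigp1 at -3.23, S1pr1 at -3.04, Slc15a3 at -3.12 and Tnfsf8 at -2.96.

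**Figure D5:**
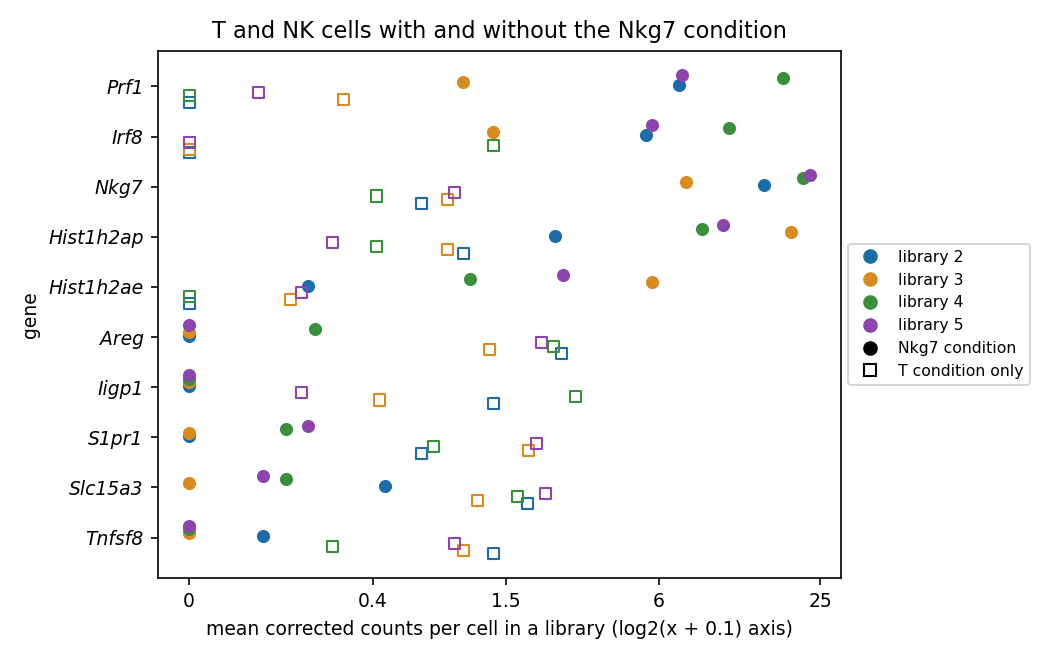
Mean corrected counts per cell in each library for the 5 genes with the largest positive and the 5 with the largest negative difference between T and NK cells with the Nkg7 condition (filled circles) and with the T-cell condition only (open squares), on a log2(x + 0.1) axis. Color gives the library, and symbols are shifted vertically to keep equal values apart. The circles lie to the right of the squares of the same color in the upper 5 genes and to the left in the lower 5.

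Genes that were lower in T and NK cells than in all other tumor cells were led by those of neutrophils. S100a8 and S100a9, the calcium-binding proteins that neutrophils hold in large amounts, averaged 0.706, 1.2, 1.44 and 0.870 and 0.529, 4.6, 2.19 and 0.870 counts in the 4 libraries, against 190.0 to 333.2 and 233.0 to 404.2 in other tumor cells. Their differences were -7.90 ± 0.31 and -7.67 ± 1.06. BC100530, Stfa2, Gm5483 and Stfa2l1, close relatives in the stefin family whose counts may be split among copies, followed at -6.28 to -6.98, with Cxcl2, Retnlg, G0s2 and Wfdc17. All 8 neutrophil markers were lower (median -4.32; 7 without the 2 cells of library 3), and so were 10 of 11 markers of monocytes and macrophages (median -3.19), all but Ly6c2, beside Csf1r, which the rule set to 0. Lyz2 averaged 0.412, 0.3, 2.63 and 0.348 counts against 25.8 in other tumor cells. In library 4, Cxcl2, Wfdc17 and Lyz2 were less far apart, at -3.65, -3.32 and -3.18. With the 72 cells whose S100a8, S100a9 and Lyz2 summed to at most 5, Cxcl2 was at -6.17 and Wfdc17 at -6.73. No marker of dendritic cells (4 with enough counts), of B cells (3) or of tumor, stromal and red cells (4) was counted in either direction, with medians of -1.80, -1.02 and 1.31, and the markers of basophils and mast cells were not analysed here.

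The same rule was applied to the cultured macrophages of the series, made from B cells (B-MF) or monocytes (Mo-MF) in medium conditioned by 4T1.2 cells and normalized apart from the tumor cells. No cell met it in the B-MF cultures (0 of 5237 and 0 of 5326 cells, which allow shares of up to 0.0573% and 0.0563%) or in the first Mo-MF culture (0 of 4846, up to 0.0619%). Since 97.0% to 99.6% of cultured cells had Csf1r, the rule leaves out nearly all of them. Before that exclusion no cell of the B-MF cultures met either condition, and 3 cells of each Mo-MF culture did, of which it removed 3 and 1. In the second Mo-MF culture 2 of 5389 cells met the rule, both through Nkg7 and with high S100a8 and S100a9 and none of Cd3g, Cd3d, Thy1, Lck or Lat. Cd3e and Trac were not analysed here in the cultures, so the T-cell condition rested on Cd3g alone there.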

How the data were processed

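Single cells of TAM from 4 tumor libraries were used, 10885 cells and 15333 genes. Reads were aligned and counted by the authors in Cell Ranger 5.0. Cells with under 1000 genes were dropped, counts were adjusted for depth in Seurat 4.0 (SCTransform), and the deposited values are natural log values, ln(corrected count + 1). Values were converted back and rounded, and lay within 5.63e-07 of a whole number relative to their size. Depth before the correction is unknown, and totals of corrected counts per cell do not give it. Means were taken over cells within libraries, 0.1 was added and log2 differences were formed in each library, for genes whose average of the 2 population means was at least 0.1. No p-values were computed, since the cells were selected on the same measurements. Precision is the SD over 4 libraries. The study names 4 mice, but no label ties a library to 1 mouse, so this spread may be technical. The calculation was checked on simulated counts.

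The members and gene lists were chosen with earlier results of these data known. Named genes were those of the rule, genes of the lists as examples, the 15 largest positive and 10 largest negative mean differences among those counted in all libraries, and the 5 largest in each direction between the conditions. The lists held 232 genes, of which 201 were in the table. They covered T-cell receptor and lineage, T-cell subsets, NK receptors, cytotoxic granule, cytokines, inhibitory and costimulatory receptors, cytokine receptors, homing, transcription factors, cell cycle, and markers of neutrophils, macrophages, dendritic cells, B cells, basophils and mast cells, and tumor, stromal and red cells. The alternatives tried were other thresholds, pseudocounts, scaling, filters, subsets of members and each library left out. Gene positions are from GENCODE for GRCm38, the build of mm10, and promoters from RefSeq. The labels name a different Chromium kit than the methods of the study, which give 3' chemistry. Peak lists of the series were not used. Some genes of the lists are not reported here by name. Software was biopython 1.88, matplotlib 3.10.9, pandas 2.3.3, scipy 1.17.1 and numpy 2.4.6 under Python 3.11.15.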

Additional observations from a re-analysis of the deposited data

Results flagged for a closer look

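Over the 4 libraries, 104 values were screened for 1 library standing far from the others by Dixon's criterion, of which about 5% would pass by chance, and 9 did. In library 3, with 10 cells of which 3 met the Nkg7 condition, the log2 difference between T and NK cells and all other tumor cells was 4.88 for Nkg7 against 6.64 to 6.84 in the other libraries, 5.41 for Cd3e against 5.86 to 5.94, 2.38 for Klrd1 against 4.52 to 4.81, 1.58 for Cxcr6 against 4.51 to 4.84 and 2.32 for Themis, a T-cell signaling protein, against 3.59 to 3.67. In library 2 it was 2.26 for Txk, a kinase of T and NK cells, against 4 to 4.08, and 5.33 for Ctla4 against 4.28 to 4.44. In library 5 it was -5.29 for Csf3r, a neutrophil receptor, against -4.06 to -3.81. In library 4 it was -3.18 for Lyz2 against -5.93 to -5.72, and 1 cell there held 64 of its 71 counts. The part of the small number of cells in these values was not tested.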

How the results depend on the processing

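No paired analysis was possible because replicate numbers 1 to 4 of the labels could not be tied to libraries 2 to 5 and no test was run, but every difference was formed within a library. The share of T and NK cells stayed between 0.588% and 0.808% over all thresholds and with each library left out. The 471 higher genes became 742 with a pseudocount of 0.02, 169 with 0.5, 256 in cells with the T-cell condition only and 255 in the 8 cells with the Nkg7 condition only (libraries 3 to 5), and the 509 lower genes became 259 with 0.5 and 811 in those 8 cells. Leaving out 1 library gave 528 to 614 higher and 536 to 634 lower genes. The comparisons by Nkg7 condition were varied after the data were seen: 46 higher and 57 lower genes became 122 and 93 with a pseudocount of 0.02, 3 and 11 with 0.5, and 88 to 155 and 92 to 180 with 1 library left out, which asks for agreement of 3 libraries in place of 4. Of the named genes, Mki67 turned to -0.65 in cells with the T-cell condition only. In the 8 cells with the Nkg7 condition only, 17 genes turned: Cd3e -0.069, Trac -0.033, Cd5 -0.045, Cd6 -0.079, Thy1 -0.17, Bcl11b -0.028, Themis -0.0061, Cd4 -0.081, Foxp3 -0.025, Pdcd1 -0.082, Ctla4 -0.083, Tnfrsf4 -0.11, Il7r -2.37, Il1rl1 -0.14, Ccr7 -0.62, S1pr1 -0.81 and Itgae -0.10. The rule set Cd3e and Trac there. Apart from Il7r and Ccr7, none of the 17 genes had a count in the 8 cells. The smallest of these values thus mean few or no counts in both groups. S1pr1 was -0.10 in all 40 cells with the condition. No direction of a named gene that was counted between T and NK cells and other tumor cells turned with each cell scaled to the same total. Another pseudocount, another filter or a library left out cannot turn such a direction, so those settings say nothing about it. Depth before correction is unknown.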
